A study of Mus musculus with 18 samples.

Results

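The 10 Toll-like receptor genes described here are Tlr1, Tlr2, Tlr3, Tlr4, Tlr5, Tlr6, Tlr7, Tlr8, Tlr9 and Tlr13. The mouse family members Tlr11 (at most 23 reads in any library) and Tlr12 (at most 1 read) are not among them and are described apart. The 10 genes were chosen by name from the 38887 genes in the deposited data, with earlier results of these data known. Their transcripts were followed in bone marrow-derived macrophages (BMMs) of 3 genotypes, with 3 libraries in each of the 6 groups formed by genotype and treatment. RNA was taken from untreated cells or after 4 h with 100 ng/ml lipopolysaccharide (LPS), and poly(A) RNA was sequenced.

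By the study's methods, WT BMMs came from Lyz2-Cre mice without a floxed allele. GILZ KO cells carry Lyz2-Cre and loxP sites around an exon of Tsc22d3, the gene of the glucocorticoid-induced leucine zipper (GILZ). In GILZ TG cells, Lyz2-Cre removes a stop cassette from a Gilz-1 cDNA placed in the ROSA26 locus. Deletion and transgene expression are thus limited to cells of the myeloid lineage, in which the Lyz2 promoter is active. All mice were female on the C57BL/6J background and, by the study's methods, 10 to 23 weeks old. Their marrow was cultured for 6 days with 50 ng/ml M-CSF. Within a group, each library is described as an independent preparation. Whether untreated and LPS libraries with the same number come from the same mouse is not stated, and they were treated as unpaired.

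Toll-like receptors are membrane proteins that bind conserved parts of microbes and start inflammatory gene expression. TLR1, TLR2, TLR4, TLR5 and TLR6 sit at the cell surface, where TLR4 senses LPS, TLR2 pairs with TLR1 or TLR6 to sense lipopeptides, and TLR5 senses flagellin. TLR3, TLR7, TLR8, TLR9 and TLR13 sit in endosomes and sense double-stranded RNA, single-stranded RNA, CpG DNA and, for TLR13, bacterial ribosomal RNA. Signals pass through the adaptor MyD88, or TRIF in the case of TLR3 and endocytosed TLR4, to NF-kB, AP-1 and interferon regulatory factors. In macrophages, LPS itself changes the transcript levels of several of these receptors.

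In the GRCm38 annotation, Tlr1 (chr5:64924679-64933563, minus strand) and Tlr6 (chr5:64952031-64960097, minus strand) are neighbours with 18467 bases between them. Tlr8 (chrX:167242696-167264329, minus strand) and Tlr7 (chrX:167304929-167330558, minus strand) lie 40599 bases apart, and Tlr13 (chrX:106143204-106160493, plus strand) is on the same chromosome. Tlr2 (chr3:83836272-83841767, minus strand), Tlr4 (chr4:66827584-66930284, plus strand), Tlr5 (chr1:182954788-182976044, plus strand) and Tlr9 (chr9:106222598-106226883, plus strand) are single genes on their chromosomes among the members. So is Tlr3 (chr8:45395665-45411080, minus strand). The counts of Tlr1 and Tlr6 were not whole in 18 of 18 libraries, so some of their reads were divided between genes and their values carry that uncertainty. The other 8 members had whole counts throughout.

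Promoter sequences of RefSeq (GRCm38.p6) matched 8 of the 10 genes, all but Tlr4 and Tlr7. The 250 bases before each start were searched on both strands for the NF-kB consensus, the interferon-response core (GAAA, 2 bases of any kind, GAAA), the AP-1 site TGANTCA and the PU.1 core GAGGAA. No matches of different motifs overlapped in the windows shown. These were present in 7.25%, 2.98%, 6.75% and 23.3% of 32851 RefSeq promoter windows, respectively. Below are the promoters of 3 genes that rose after LPS and of Tlr13, which fell, shown because together they hold all 4 motifs. They run 5′ to 3′ on the strand of the gene and stop where an annotated exon begins, and capitals mark the motif matches. The Tlr2 stretch (chr3:83841768-83841858) holds the NF-kB consensus in 2 overlapping registers, the outer one starting 173 bases before the start. The Tlr6 stretch (chr5:64959167-64959416) lies in an intron, before the inner of 2 RefSeq starts, and holds 2 interferon-response cores on the opposite strand. The 250 bases before the outer Tlr6 start matched none of the 4 motifs. The Tlr9 stretch (chr9:106222348-106222597) holds an AP-1 site 58 bases before the start and a PU.1 core. The Tlr13 stretch (chrX:106143025-106143203) holds a PU.1 core only.
Tlr2: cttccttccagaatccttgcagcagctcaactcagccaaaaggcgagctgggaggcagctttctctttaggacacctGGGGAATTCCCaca
Tlr6: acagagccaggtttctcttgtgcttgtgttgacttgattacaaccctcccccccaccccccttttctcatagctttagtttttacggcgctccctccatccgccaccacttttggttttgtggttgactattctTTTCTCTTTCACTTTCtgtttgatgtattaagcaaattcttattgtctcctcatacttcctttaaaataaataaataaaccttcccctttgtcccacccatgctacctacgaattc
Tlr9: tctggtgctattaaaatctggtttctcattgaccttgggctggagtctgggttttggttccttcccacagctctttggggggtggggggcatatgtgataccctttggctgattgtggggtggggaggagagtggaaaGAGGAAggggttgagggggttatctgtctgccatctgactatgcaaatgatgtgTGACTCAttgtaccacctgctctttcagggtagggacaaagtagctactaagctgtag
Tlr13: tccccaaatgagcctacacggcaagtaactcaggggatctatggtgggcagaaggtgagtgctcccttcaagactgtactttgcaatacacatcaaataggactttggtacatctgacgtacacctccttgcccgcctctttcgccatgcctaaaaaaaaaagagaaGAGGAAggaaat
Tlr1 and Tlr8 also matched the PU.1 core, Tlr3 matched the NF-kB consensus inside an annotated exon, and Tlr5 matched none of the 4. A match here is a description of letters, not a site of binding.

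The libraries held 14583055 to 38557029 reads on genes, with the lowest group median of 15491518 in GILZ KO after LPS. The target gene Tsc22d3 was at 15.8, 14.9 and 18.8 TPM (transcript abundance scaled to length and library total) in untreated WT, at 1.89, 2.81 and 2.31 TPM in GILZ KO and at 156, 160 and 152 TPM in GILZ TG, the order that the labels give. After LPS it was at 4.56 to 5.81 TPM in WT, 2.50 to 3.28 TPM in GILZ KO and 127 to 141 TPM in GILZ TG. Lyz2, the locus that carries Cre, was at 11048 to 15401 TPM in untreated WT and at 17.2 to 53.1 TPM in both other genotypes, and at 6766 to 9466 TPM and 22.2 to 70.3 TPM after LPS. WT thus differed from GILZ KO and GILZ TG at this locus as well, and in any comparison with WT the 2 differences cannot be told apart. The 8 macrophage markers checked summed to 3460 to 4176 TPM in every library. GILZ TG libraries 1 and 2 stood apart in both treatments through transcripts of other cell types, and their values are given beside the results that they touch.

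Without treatment, Tlr13 and Tlr2 made up most of the receptor transcripts. TPM values are corrected for transcript length, so they can be set side by side between genes. In untreated WT, Tlr13 was at 208, 180 and 146 TPM and Tlr2 at 112, 136 and 129 TPM. Tlr4 (39.95, 37.6 and 32.5 TPM) and Tlr7 (35.8, 34.4 and 31.4 TPM) came next, and their libraries overlapped. Tlr8 (25.8, 18.5 and 17.95 TPM) and Tlr1 (16.6, 19.0 and 16.1 TPM) overlapped as well. Lower still, and without overlap between neighbours, were Tlr6 (6.87 to 7.34 TPM), Tlr3 (5.65 to 5.79 TPM), Tlr9 (2.64 to 3.49 TPM) and Tlr5 (0.87 to 1.17 TPM). GILZ KO and GILZ TG kept this order, except that Tlr7 stood before Tlr4 in both, by ranges that overlapped in GILZ KO and not in GILZ TG. In GILZ TG, Tlr3 and Tlr9 overlapped too.

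**Figure D1:**
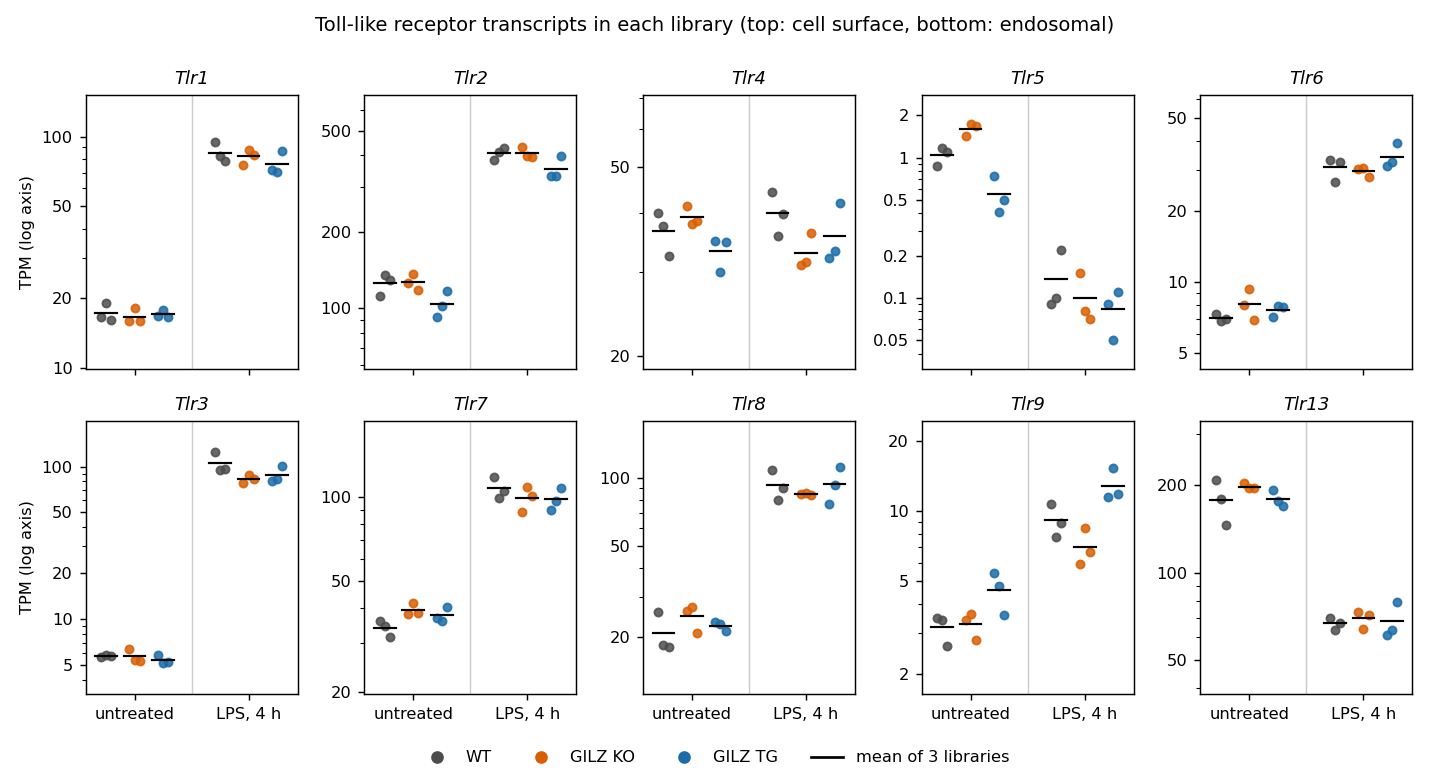
TPM on a log axis for each of the 10 genes, by genotype (colour) and treatment, where points are the 3 libraries of a group and bars their mean. Tlr3 rose furthest, from 5.18 to 6.36 TPM untreated to 78.1 to 125 TPM after LPS, while Tlr13 and Tlr5 moved down and Tlr4 stayed between 30.1 and 44.2 TPM.

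After LPS the order was a different one. Tlr2 was first, at 385, 413 and 429 TPM in WT. Tlr7 (118, 99.8 and 106 TPM), Tlr3 (125, 95.3 and 96.2 TPM), Tlr8 (108, 80.1 and 90.2 TPM) and Tlr1 (94.6, 83.0 and 78.5 TPM) followed, each overlapping the next. Tlr13 was sixth at 63.7 to 70.1 TPM, before Tlr4 (35.7 to 44.2 TPM), Tlr6 (26.7 to 33.0 TPM) and Tlr9 (7.76 to 10.7 TPM). Tlr5 was last at 0.09 to 0.22 TPM. The same 6 genes led in GILZ KO and GILZ TG, with Tlr8 before Tlr3 by overlapping ranges.

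The summed level of the 10 genes was 390 to 476 TPM in untreated libraries and 786 to 988 TPM after LPS, and the 2 ranges did not overlap. Surface receptors held 36.5% to 47.7% of the sum without treatment and 56.3% to 63.2% with LPS. Tlr13 held 37.5% to 46.4% of the sum in untreated libraries and 7.04% to 8.17% in LPS libraries. For Tlr2 the share was 22.3% to 33.1% and then 38.9% to 47.9%, and for Tlr3 it was 1.14% to 1.47% and then 8.69% to 12.6%. These shares come from within a library and do not depend on how libraries are scaled against each other. Tlr2 and Tlr13 had a TPM ratio of 0.48 to 0.88 in untreated libraries and of 4.99 to 6.48 after LPS. The ratio of Tlr7 to Tlr8 was 1.39 to 1.90 and then 0.97 to 1.27, while that of Tlr1 to Tlr6 was 1.94 to 2.76 and then 2.18 to 3.11, with overlap.

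**Figure D2:**
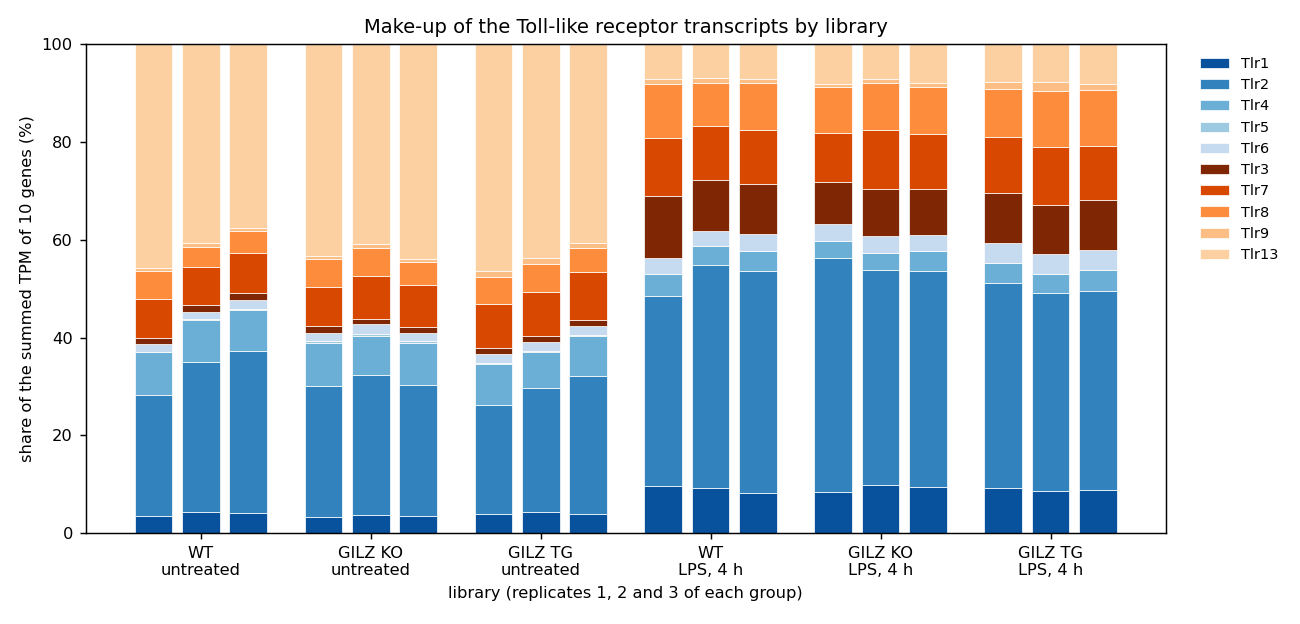
Share of the summed TPM of the 10 genes in each of the 18 libraries, in percent, with surface receptors in blue and endosomal receptors in orange and brown. Tlr13 takes 37.5% to 46.4% of an untreated library and 7.04% to 8.17% of a library with LPS, in all 3 genotypes.

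The first comparison asked how the receptor genes respond to LPS within each genotype. All 10 were called in WT, GILZ KO and GILZ TG (edgeR quasi-likelihood test, Benjamini-Hochberg adjusted over 13169 genes, threshold 0.05). In each genotype 8 genes were higher and 2, Tlr5 and Tlr13, were lower. Of all genes tested, 68.6% were called in WT, 68.5% in GILZ KO and 68.7% in GILZ TG, so a call alone does not set a receptor gene apart. Calls of higher genes made up 33.5%, 33.2% and 33.6% of all genes in these genotypes, and calls of lower genes 35.1%, 35.4% and 35.1%. The TPM values of the LPS and untreated libraries did not overlap for 9, 10 and 9 of the 10 members, beside 81.2%, 83.7% and 80.9% of all genes, and the exception in WT and GILZ TG was Tlr4. The median log2 fold change of the members was 2.27, 2.13 and 2.26 in these genotypes, beside -0.02 for all genes in each. In these bulk RNA samples, a change in the share of cells that express a gene cannot be told apart from a change of its RNA per cell.

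The scaling of the libraries matters for these values. TMM, which places the median of all genes near 0, was the main scaling. On log2(TPM + 1) the median of all genes was -0.51 in WT, a shift of -0.49, with -0.49 in both other genotypes. The direction of calls over all genes moved with it, since 48.9% of the calls in WT were higher under TMM and 19.8% on the TPM scale, with 48.4% and 18.8% in GILZ KO and 48.9% and 19.3% in GILZ TG. All log2 fold changes below are on the TMM scale, relative to that median, unless the TPM scale is named.

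Among the surface receptors, Tlr2, Tlr1 and Tlr6 rose together. Tlr2, the shared partner of the lipopeptide receptors, rose by 2.33 on the log2 scale in WT (SE 0.11, adjusted p = 6.4e-12), 2.32 in GILZ KO and 2.40 in GILZ TG. Tlr1, at 16.1 to 19.0 TPM before and 78.5 to 94.6 TPM after LPS in WT, had log2 fold changes of 2.94, 2.95 and 2.80. Tlr6 had 2.75, 2.51 and 2.80. For these 3 genes every LPS library was above every untreated library of its genotype, and the TPM scale left the direction as it was (1.70, 2.25 and 1.97 in WT).

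Tlr4, the LPS receptor itself, moved least. Its 3 LPS libraries in WT had 44.2, 35.7 and 39.9 TPM beside 39.95, 37.6 and 32.5 TPM without LPS, and these ranges overlapped. In GILZ KO, the LPS libraries at 31.0, 31.5 and 36.2 TPM were all below the untreated ones at 41.3, 37.97 and 38.4 TPM. In GILZ TG, 32.2, 33.3 and 42.1 TPM overlapped with 34.9, 30.1 and 34.8 TPM. On the TMM scale Tlr4 rose by 0.66 in WT (SE 0.11, adjusted p = 4.4e-05), 0.32 in GILZ KO (adjusted p = 0.018) and 0.72 in GILZ TG (adjusted p = 1.8e-05), but on the TPM scale it was at 0.12 (adjusted p = 0.32), -0.25 (adjusted p = 0.045) and 0.10 (adjusted p = 0.41). Its direction in GILZ KO therefore turned with the scaling, and in WT and GILZ TG the call was lost. The TMM call in GILZ KO was also lost without untreated library 2, untreated library 3 or LPS library 3 of that genotype (adjusted p of 0.074, 0.077 and 0.088). The other 9 members kept their direction and their call on both scales.

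Tlr5, the flagellin receptor, was low throughout and lower after LPS. Untreated WT had 45, 61 and 51 reads, while 2 to 10 reads remained in any library after LPS. Its log2 fold changes were -2.29 in WT (95% interval -3.03 to -1.55, adjusted p = 1.7e-05), -3.26 in GILZ KO and -2.10 in GILZ TG. Tlr5 passed the filter on low counts through its untreated libraries, so its place among the called members is fixed in part by that filter. In GILZ TG without libraries 1 and 2, which leaves 1 GILZ TG library in each treatment, the fall was -1.49.

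Tlr3, the receptor for double-stranded RNA, had the largest rise of the 10. It went from 5.65, 5.79 and 5.71 TPM to 125, 95.3 and 96.2 TPM in WT, from 5.32 to 6.36 TPM to 78.1 to 87.5 TPM in GILZ KO and from 5.18 to 5.81 TPM to 80.3 to 101 TPM in GILZ TG. The log2 fold changes were 4.84 (28.5-fold, SE 0.14, adjusted p = 4.6e-15), 4.49 and 4.66. In WT 302 of the 13169 genes had a higher log2 fold change.

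The 2 neighbours Tlr7 and Tlr8, sensors of single-stranded RNA, rose as well, Tlr8 by more than Tlr7 in each genotype. In WT, Tlr7 rose by 2.21 and Tlr8 by 2.70. In GILZ KO the log2 fold changes were 2.03 and 2.23, and in GILZ TG 2.05 and 2.55. Whether the 2 genes differ in their response was not tested.

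Tlr9, the CpG DNA receptor, rose by 2.15 in WT (SE 0.17, adjusted p = 5.8e-09), from 3.49, 3.42 and 2.64 TPM to 10.7, 7.76 and 8.91 TPM. The values were 1.73 in GILZ KO and 2.11 in GILZ TG, on levels between 3.59 and 5.44 TPM before and 11.5 and 15.2 TPM after LPS in the latter. The LPS libraries of all 3 genotypes were above the untreated ones.

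Tlr13, the most abundant receptor transcript at rest, fell. In WT it went from 208, 180 and 146 TPM to 70.1, 63.7 and 67.3 TPM, in GILZ KO from 195 to 203 TPM to 64.2 to 73.4 TPM and in GILZ TG from 170 to 193 TPM to 61.2 to 79.5 TPM. No LPS library reached an untreated one. On the TMM scale the log2 fold changes were -0.77 (SE 0.11, adjusted p = 6.3e-06), -0.87 and -0.77, and on the TPM scale -1.38, -1.49 and -1.40. In GILZ TG without libraries 1 and 2, which leaves 1 GILZ TG library in each treatment, the TMM value was -0.43.

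**Figure D3:**
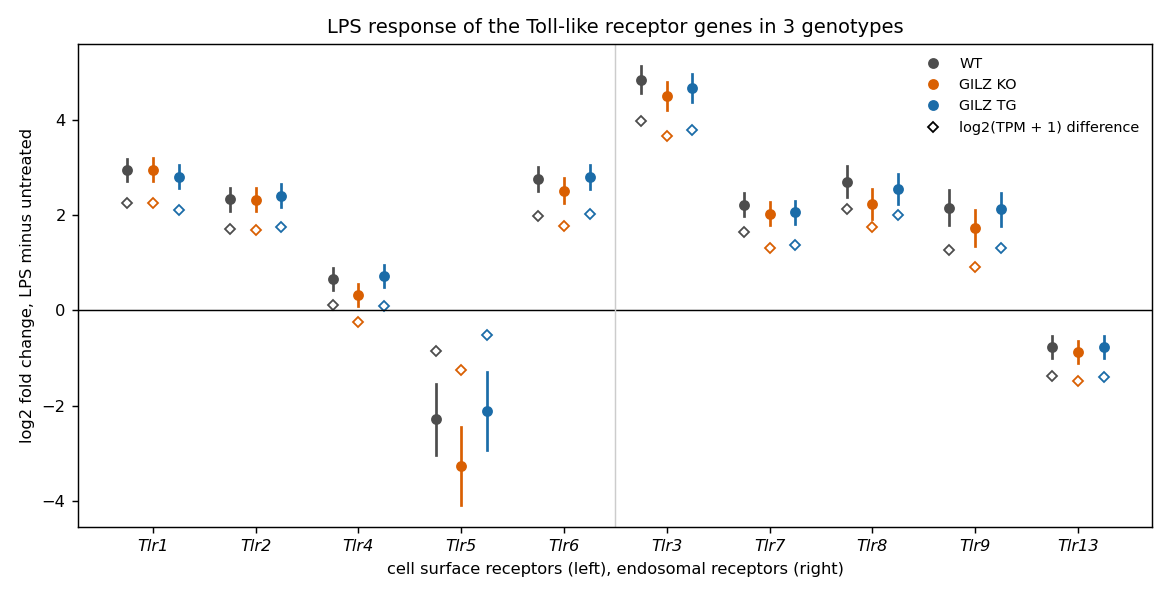
Log2 fold change of LPS minus untreated for the 10 genes in the 3 genotypes, where filled points with bars are TMM-scaled edgeR values with 95% intervals and open diamonds are differences of log2(TPM + 1). Tlr3 stands highest at 4.49 to 4.84, Tlr5 and Tlr13 lie below 0, and the Tlr4 values in WT of 0.66 and 0.12 show how far the scale moves them.

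The second comparison asked whether the LPS response differs between genotypes, tested as an interaction over all 18 libraries. None of the 10 genes passed the threshold in any of the 3 tests by edgeR. For GILZ KO against WT, 0.0152% of all genes were called, and 2 members had an unadjusted p under 0.05, a level reached by 6.36% of all genes. These were Tlr8, with a difference of -0.47 (95% interval -0.90 to -0.04, adjusted p = 0.73), and Tlr4, with -0.34 (-0.67 to -0.01, adjusted p = 0.76). For GILZ TG against WT, 0.00759% of all genes were called, no member had an unadjusted p under 0.05 beside 3.09% of all genes, and Tlr3 was the member furthest from WT on the lower side at -0.18 (-0.55 to 0.19). For GILZ KO against GILZ TG, 0.121% of all genes were called and 1 member, Tlr4, had an unadjusted p under 0.05 beside 9.92% of all genes, with -0.40 (-0.74 to -0.07, adjusted p = 0.36). DESeq2 called no member in any of these tests either. The intervals for Tlr2 in the 3 tests lay between -0.40 and 0.39, so a difference of response beyond these bounds was not seen for Tlr2. For Tlr5 the interval of GILZ KO against GILZ TG reached from -2.42 to 0.10, a width that goes with its few reads after LPS. On the log2(TPM + 1) scale this Tlr5 difference was at -0.74 (adjusted p = 0.047) and on log2(TPM + 0.1) at -1.31 (adjusted p = 0.27), with all LPS libraries at 0.05 to 0.22 TPM, below the pseudocount of the first. No other alternative called a member in this test.

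The third comparison set the genotypes against each other within a treatment. Across the 9 untreated libraries, no member passed the threshold in GILZ KO against WT, where 0.0951% of 12621 genes were called, nor in GILZ TG against WT, where 0.642% were. In GILZ KO against GILZ TG, 4.94% of all genes were called and 1 of the 10 members, Tlr5, was among them. By unadjusted p under 0.05 it was 2, 3 and 4 of the 10 members, beside 9.6%, 14.1% and 24.6% of all genes. TPM values did not overlap for 2, 3 and 4 members, beside 17.2%, 14.9% and 28.7% of all genes. After LPS, 9 members were tested, and 2 members for GILZ KO and 2 for GILZ TG (each set against WT) and 1 for GILZ KO set against GILZ TG had an unadjusted p under 0.05, beside 9.63%, 15.2% and 19.1% of all genes. There, TPM values did not overlap for 1, 1 and 2 members, beside 16.3%, 15.2% and 20.6% of all genes. DESeq2 gave the same counts of called members, 0, 0 and 1 in both treatments.

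Tlr5 followed the order GILZ KO, WT, GILZ TG without treatment. Its levels were 1.43, 1.74 and 1.67 TPM in GILZ KO, 0.87, 1.17 and 1.1 TPM in WT and 0.74, 0.41 and 0.50 TPM in GILZ TG, from 60 to 67, 45 to 61 and 21 to 28 reads. The 3 groups did not overlap. GILZ KO against GILZ TG gave a log2 fold change of 1.52 (SE 0.25, 95% interval 0.96 to 2.09, adjusted p = 0.014). The call was lost, with adjusted p of 0.052 to 0.064, when any 1 of the GILZ KO libraries or GILZ TG library 2 was left out, while the log2 fold change stayed between 1.34 and 1.61 in these. Against WT, GILZ KO was at 0.58 (0.05 to 1.11, adjusted p = 0.51) and GILZ TG at -0.95 (-1.51 to -0.38, adjusted p = 0.14).

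Tlr9 was the other member with a genotype difference, and it was seen after LPS. Its levels were 5.94, 8.5 and 6.65 TPM in GILZ KO, 10.7, 7.76 and 8.91 TPM in WT and 11.5, 15.2 and 11.8 TPM in GILZ TG. The GILZ TG libraries were all above the others, and GILZ KO overlapped with WT. GILZ KO against GILZ TG gave -0.88 (SE 0.16, 95% interval -1.23 to -0.53, adjusted p = 0.020), with 2.6% of 12164 genes called. It was no longer past the threshold without GILZ KO library 1 (adjusted p = 0.11), GILZ KO library 3 (0.090) or GILZ TG library 2 (0.074). GILZ TG against WT was at 0.49 (0.15 to 0.83, adjusted p = 0.17) and GILZ KO against WT at -0.39 (-0.74 to -0.04, adjusted p = 0.48), where 0.46% and 0.0822% of all genes were called and no member was.

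Without treatment Tlr9 had 5.44, 4.76 and 3.59 TPM in GILZ TG, beside 2.64 to 3.49 TPM in WT and 2.81 to 3.61 TPM in GILZ KO. The log2 fold change of GILZ TG against WT was 0.52 (0.16 to 0.88, adjusted p = 0.19), and that of GILZ KO against GILZ TG -0.51 (-0.88 to -0.15, adjusted p = 0.089). Leaving out GILZ TG library 3, the lowest of its group, brought both past the threshold, at 0.66 (adjusted p = 0.026) and -0.66 (adjusted p = 0.018). Without GILZ TG libraries 1 and 2, which leaves 1 GILZ TG library, they were at 0.18 and -0.17.

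GILZ TG libraries 1 and 2 also held transcripts of other cells. Tlr9 is known from B cells and plasmacytoid dendritic cells, so their markers are given here. The 8 listed B-cell genes summed to 93.6, 158 and 36.1 TPM in the untreated GILZ TG libraries 1, 2 and 3, and to 81.8, 149 and 26.1 TPM after LPS, beside 16.9 to 35.5 TPM in the 12 libraries of WT and GILZ KO. Immunoglobulin transcripts carried this, with Igkc at 42.3, 97.4 and 11.4 TPM and Ighm at 42.0, 46.2 and 16.6 TPM in untreated GILZ TG. Not every gene of the list followed them. Cd79a, Ms4a1 and Pax5 were near 0 in all 18 libraries, with highest values of 0.13, 0.08 and 0.16 TPM. Cd79b, a B-cell receptor subunit, was present in every library and lower in untreated GILZ TG (7.05 to 9.05 TPM) than in WT (9.23 to 11.5 TPM) and GILZ KO (12.2 to 13.4 TPM). Of the 5 plasmacytoid dendritic cell genes, which summed to 0.13 to 2.43 TPM, Siglech reached 0.10 TPM at most.

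The 7 genes of the neutrophil lineage summed to 174, 449 and 62.2 TPM in untreated GILZ TG and to 207, 488 and 79.3 TPM after LPS, beside 19.1 to 73.0 TPM elsewhere. S100a8, S100a9 and Ngp carried this, at 156, 199 and 81.4 TPM in untreated GILZ TG library 2. Ly6g, Mpo and Elane were low in the same library, at 0.24, 1.87 and 0.51 TPM. The 6 stromal genes summed to 98.3, 113 and 9.60 TPM without treatment and to 77.7, 106 and 8.33 TPM after LPS, beside 4.58 to 21.3 TPM elsewhere. Collagens carried this sum, with Col1a1 at 44.2, 51.3 and 4.98 TPM in untreated GILZ TG, where Lum and Pdgfra reached 0.08 and 0.41 TPM at most. T and NK cell, conventional dendritic cell and erythroid lists reached 0.24, 1.08 and 0.83 TPM at most, and the endothelial list 12.2 TPM. The part of these transcripts in the Tlr9 and Tlr5 values was not tested. Within GILZ TG, Tlr9 was highest after LPS in library 2, which had the highest B-cell, neutrophil and stromal sums. Library 1 was then at 11.5 TPM, below library 3 at 11.8 TPM. Without treatment Tlr9 was higher in libraries 1 and 2 than in library 3. It was then highest in library 1 (5.44 TPM), above library 2 (4.76 TPM), so its order did not follow the sums throughout. Library 3 held less of these transcripts but was not free of them, with Igkc at 11.4 TPM untreated and 7.28 TPM after LPS beside at most 2.22 TPM in WT and GILZ KO. In that library Tlr9 was at 11.8 TPM after LPS and Tlr5 at 0.50 TPM without treatment. Leaving out libraries 1 and 2 leaves 1 GILZ TG library. GILZ KO against GILZ TG was then at -0.80 for Tlr9 after LPS and at 1.62 for Tlr5 without treatment.

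**Figure D4:**
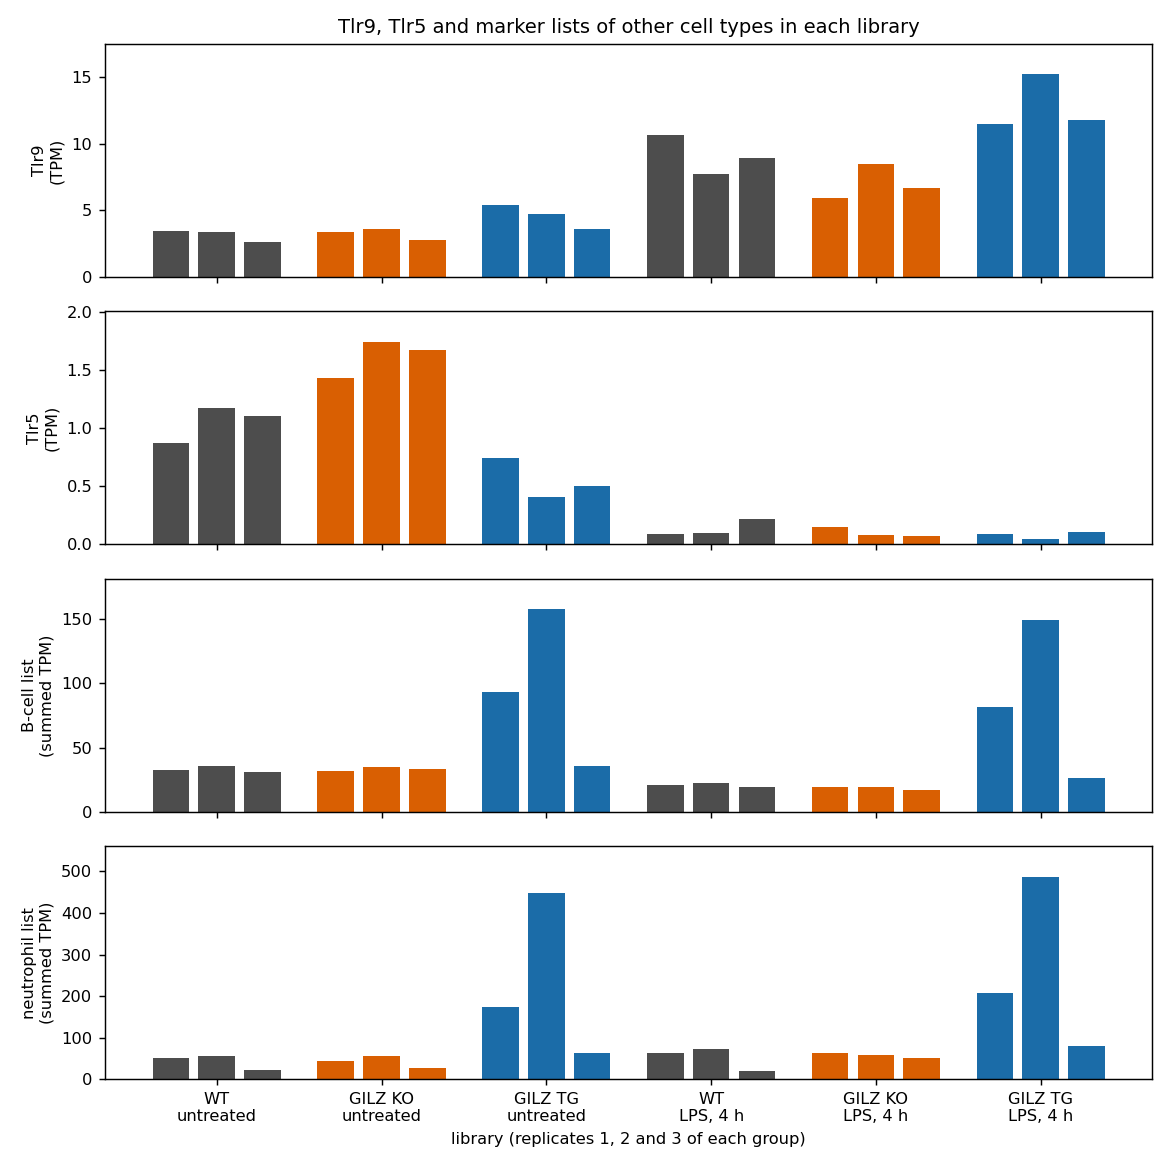
TPM of Tlr9 and Tlr5 and summed TPM of the B-cell and neutrophil marker lists in each of the 18 libraries, coloured by genotype. The marker lists peak in GILZ TG libraries 1 and 2, where the B-cell list reaches 158 TPM, and Tlr9 after LPS is highest in library 2 at 15.2 TPM, beside 11.5 and 11.8 TPM in libraries 1 and 3.

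For Tlr2, 2 of 3 GILZ TG libraries lay below all WT libraries in each treatment, but the difference did not pass the test. Untreated GILZ TG had 92.7, 102 and 117 TPM, WT 112, 136 and 129 TPM and GILZ KO 125, 136 and 118 TPM. GILZ TG against WT was at -0.28 (-0.52 to -0.04, adjusted p = 0.27) without treatment and at -0.21 (-0.41 to -0.01, adjusted p = 0.29) after LPS, where GILZ TG had 330, 330 and 397 TPM and WT 385, 413 and 429 TPM. In both treatments the highest GILZ TG library, library 3, lay within the range of WT. GILZ KO against WT was at -0.03 (-0.27 to 0.21) and -0.01 (-0.21 to 0.18).

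Without GILZ TG library 3, Tlr2 after LPS passed the threshold in GILZ TG against WT (adjusted p = 0.017). Without GILZ TG libraries 1 and 2, which leaves 1 GILZ TG library, Tlr2 was at -0.10 without treatment and at -0.01 after LPS. Libraries 1 and 2 had the lowest Tlr2 levels of GILZ TG in both treatments, so leaving them out had to shrink the difference.

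For the other 7 members the genotype differences were small. In the 4 comparisons with WT, the log2 differences of Tlr1, Tlr3, Tlr4, Tlr6, Tlr7, Tlr8 and Tlr13 lay between -0.35, for Tlr3 in GILZ KO after LPS, and 0.27, for Tlr8 in untreated GILZ KO. Tlr3 after LPS was at 78.1, 87.5 and 83.5 TPM in GILZ KO and at 125, 95.3 and 96.2 TPM in WT, with no overlap (95% interval -0.63 to -0.07, adjusted p = 0.42). Tlr4 without treatment was higher in GILZ KO than in GILZ TG by 0.25 (0.07 to 0.43), at 37.97 to 41.3 TPM against 30.1 to 34.9 TPM, but not past the threshold (adjusted p = 0.089). Tlr13 had log2 differences of 0.01 to 0.12 in the 4 comparisons with WT. With 3 libraries a group, an exact permutation test of a single gene cannot go below p = 0.1, so the calls rest on the spread estimated across all genes. Tlr5 fell under the filter on low counts in the LPS libraries and was not tested there.

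**Figure D5:**
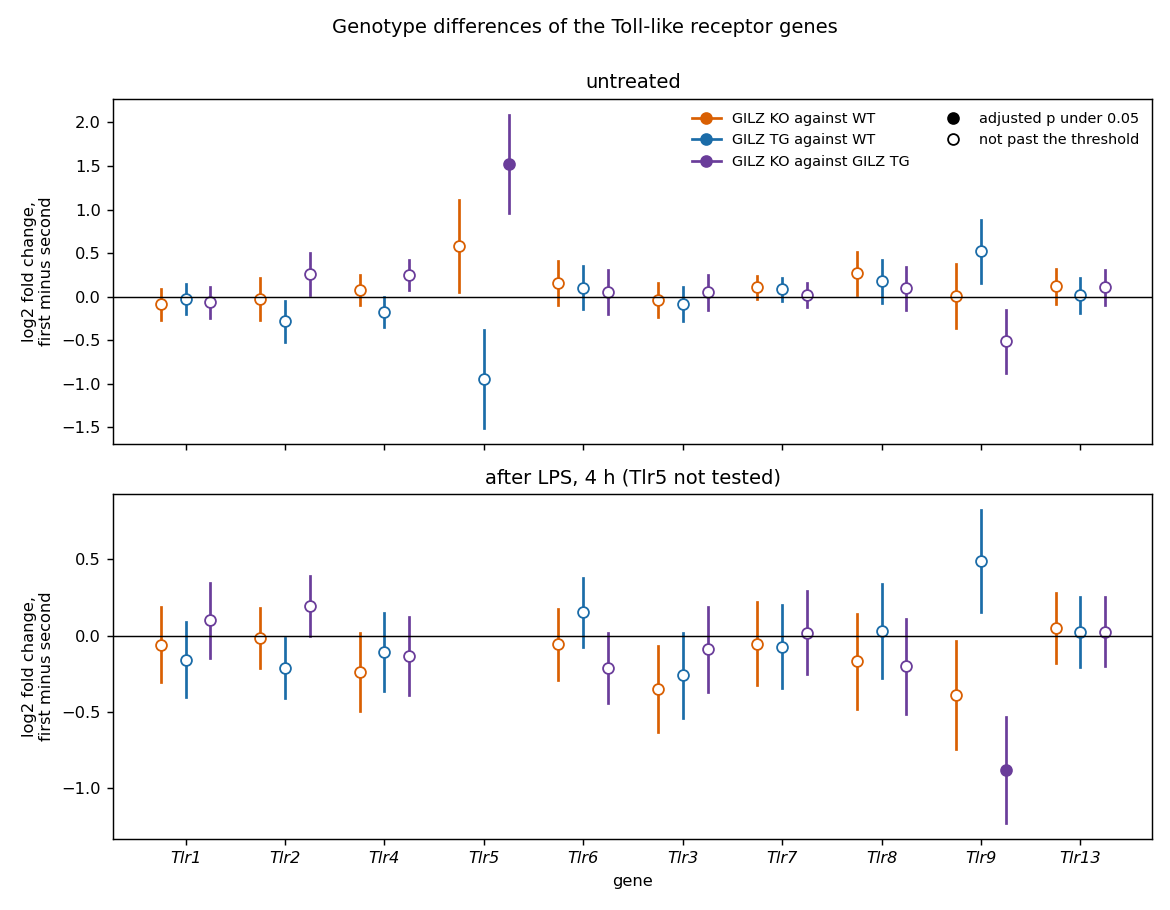
Log2 fold change between genotypes for the 10 genes without treatment and for 9 of them after LPS, with 95% intervals from edgeR, where filled points are past the adjusted threshold. Tlr5 at 1.52 without treatment and Tlr9 at -0.88 after LPS, both in GILZ KO against GILZ TG, are the 2 filled points.

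The partners of the receptors were read from 4 lists. Their counts moved with the scaling, so both scales are given, beside medians of all genes of -0.02 (TMM) and -0.51 (TPM) in WT. Of all genes, 33.5% rose and 35.1% fell in WT on the TMM scale, and 16.1% rose and 65% fell on the TPM scale. In GILZ KO 15.3% rose and 66.1% fell on the TPM scale, and in GILZ TG 15.6% and 65.2%. Of 14 co-receptors, chaperones and trafficking genes, 10 rose and 2 fell in WT after LPS on the TMM scale, with a median log2 fold change of 0.29, while on the TPM scale 4 rose and 7 fell, with a median of -0.18. Ly86, the partner of the receptor homologue CD180, rose by 1.87 and Cd14, which hands LPS to TLR4, by 1.61, from 756 ± 64.4 TPM (SD, n = 3) to 1493 ± 136 TPM. Cnpy3 and Cnpy4, which help receptor folding and surface transport, fell by 0.66 and 0.97. In GILZ KO and GILZ TG, 8 rose and 2 fell on the TMM scale and 5 rose and 7 fell on the TPM scale. Unc93b1, which escorts the endosomal receptors, was the 1 gene of this list called between genotypes, at -0.23 in GILZ KO against GILZ TG without treatment (adjusted p = 0.0498), where 4.94% of all genes were called. Without GILZ TG libraries 1 and 2, which leaves 1 GILZ TG library, it was at -0.18.

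Of 19 adaptors, kinases and transcription factors, 12 rose and 6 fell in each genotype on the TMM scale, with medians of 0.91, 0.86 and 0.72. On the TPM scale 9 rose in each, and 6, 8 and 8 fell. Irf7, a driver of interferon genes, rose by 6.21 in WT and Irak2, a kinase of the MyD88 pathway, by 3.00. Tab1, a partner of the kinase TAK1, was at -1.27, from 11.3 to 3.03 TPM. Sarm1, an inhibitory adaptor, was at -1.89, but on levels near 0, with means of 0.46 TPM before and 0.11 TPM after LPS in WT.

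Of 10 negative regulators, 7 rose in each genotype on the TMM scale, while 1 fell in WT and GILZ TG and 2 fell in GILZ KO. On the TPM scale 6, 5 and 6 rose and 3, 4 and 3 fell in WT, GILZ KO and GILZ TG. Socs1 rose by 6.69 and Tnfaip3, the deubiquitinase A20, by 4.11 in WT, and Sigirr fell by 0.96. Irak3, which blocks IRAK signalling, was the 1 gene of this list called between genotypes, higher in GILZ KO than in GILZ TG by 0.38 without treatment (adjusted p = 0.033) and by 0.81 after LPS (adjusted p = 0.014), beside 4.94% and 2.6% of all genes called. Without GILZ TG libraries 1 and 2, which leaves 1 GILZ TG library, these were 0.33 and 0.51.

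Of 13 other sensors, 12 were tested. Leaving out Tlr11, which was at or near 0 reads without LPS, 10 of 11 rose in each genotype on the TMM scale, with a median of 3.92 in WT, and 9, 10 and 9 rose on the TPM scale. Zbp1, a sensor of Z-form nucleic acid, rose by 6.47. Clec7a, the beta-glucan receptor dectin-1, was higher in GILZ TG than in WT by 1.21 without treatment (adjusted p = 0.0071) and by 1.01 after LPS (adjusted p = 0.0022). Nlrp3, the inflammasome sensor, was higher in untreated GILZ TG by 0.34 (adjusted p = 0.038), and Ifih1, the RNA helicase MDA5, was higher in untreated GILZ KO than in GILZ TG by 0.36 (adjusted p = 0.040). Of all genes, 0.642% and 0.46% were called in GILZ TG against WT without and with LPS. Leaving out GILZ TG libraries 1 and 2 leaves 1 GILZ TG library. Against WT, Clec7a was then at 0.93 without treatment and 1.13 after LPS, and Nlrp3 at 0.35 without treatment. Ifih1 was then at 0.32 in untreated GILZ KO against GILZ TG. These comparisons share their GILZ TG libraries.

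The remaining mouse receptors of the family, Tlr11 and Tlr12, were near 0. Tlr11 had 0 to 3 reads in untreated libraries and 5 to 23 reads after LPS. Since it passed the filter on low counts through its LPS libraries alone, its call in each genotype was fixed in part by that filter and carries no weight. Tlr12 had at most 1 read in any library.

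For the 3 members with the widest span of group means, the genes with the closest profiles over the 18 libraries were looked up among 11683 genes with a mean of at least 1 TPM. The measure was the root-mean-square difference of centred log2(TPM + 1) profiles. Nearest to Tlr3 were Nt5c3 (0.12), Apol9a (0.13) and Xaf1 (0.13), to Tlr1 Rhbdf2 (0.10), Tor1aip2 (0.12) and Irak2 (0.12), and to Tlr8 its relative Tlr6 (0.12), Clic4 (0.15) and Vps54 (0.15). The nearest genes of Tlr3 and Tlr1, Nt5c3 and Rhbdf2, were the same with a pseudocount of 0.1, under which Tlr5 took the place of Tlr8 among the 3 widest.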

How the data were processed

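Poly(A) RNA of 18 BMM libraries (3 genotypes, untreated or with LPS, 3 libraries a group) had been sequenced with a strand-specific kit. The authors checked reads with FastQC 0.11.2, mapped them to GRCm38 (mm10) with the grape-nf pipeline and deposited, per library, an expected count (estimated reads, not normalized) and TPM of 38887 genes. They also deposited tables of their DESeq2 1.40.2 comparisons (fold changes, p-values), of which only identifiers and symbols were used. Symbols matched 37570 identifiers. Depth was 14583055 to 38557029 reads and limits low genes such as Tlr5.

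After rounding, expected counts passed filterByExpr and TMM scaling before edgeR 4.0.16 (glmQLFit, glmQLFTest, under R 4.3.3) was run two-sided, with Benjamini-Hochberg adjustment over every gene tested and a threshold of 0.05. LPS and interaction contrasts used 18 libraries, and genotype contrasts the 9 of a treatment. The SE is the log2 fold change over the root of F. Alternatives were DESeq2 1.42.0, its size factors in edgeR, limma 3.58.1 on log2(TPM + 1) and log2(TPM + 0.1), no filter, other libraries in the fit, a replicate block and leaving out each library. Added after seeing the data were library totals alone and leaving out GILZ TG libraries 1 and 2, which leaves 1 GILZ TG library, assumed to vary like the other groups. The fits were tested on simulated data. All members were named, and per list up to 2 genes of the largest change in each direction after LPS in WT. Genes of these lists called between genotypes were added after their values were seen. The members and lists were chosen with earlier results of these data known.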

Additional observations from a re-analysis of the deposited data

How the results depend on the processing

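Only member log2 fold changes with an unadjusted p under 0.05 in the main edgeR fit were followed here, which gave 47 results. They include the LPS responses of all 10 members in each genotype. For them 694 values were recomputed, and 667 kept their direction and their side of the threshold. A value that was not called and stayed so counts among the 667. The 4 that turned were Tlr4 after LPS, at -0.021 in WT with library totals alone (adjusted p = 0.84) and, in GILZ KO, at -0.25 on log2(TPM + 1), -0.25 on log2(TPM + 0.1) and -0.32 with library totals (adjusted p = 0.0047). Of the others, 18 lost and 5 gained a call. The number of members called after LPS stayed at 9 or 10 in each genotype. It was 1 in place of 0 for the LPS response of GILZ KO against GILZ TG on log2(TPM + 1), and 1 in place of 0 for GILZ TG against WT after LPS without the filter on low counts (Tlr9, 0.48, adjusted p = 0.0497). Some of the 18 lost calls come from the fit without GILZ TG libraries 1 and 2, where 1 GILZ TG library is left. Leaving out 1 library at a time gave 0 to 1 members for GILZ TG against WT in either treatment and 0 to 2 for GILZ KO against GILZ TG in either treatment. Over all its alternatives the adjusted p of Tlr5 in untreated GILZ KO against GILZ TG was 0.00012 to 0.0966, and that of Tlr9 after LPS 3.9e-05 to 0.195. Beside the LPS values, library totals alone gave medians of all genes of -0.70, -0.66 and -0.69, and 18.9%, 18.8% and 18.5% of calls higher. The cause was not tested.

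Whether replicate numbers pair the libraries cannot be decided from correlations with 3 libraries a group. Deviations of libraries with the same number correlated above 0.1 in 4 of 9 pairs across treatments and in 2 of 18 across genotypes. Across treatments these were 1 of 3 pairs in WT, 0 of 3 in GILZ KO and 3 of 3 in GILZ TG (0.27 to 0.60). In GILZ TG, untreated library 1 also correlated with LPS library 2 (0.34), and untreated library 2 with LPS library 1 (0.25). The correlations there thus set library 3 apart from libraries 1 and 2 but did not tell libraries 1 and 2 from each other. With the replicate block, 2 members were called in untreated GILZ KO against GILZ TG, Tlr5 and Tlr9 (-0.51, adjusted p = 0.031), and 10 after LPS in each genotype.

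The numbers of all genes called moved more. For GILZ KO against WT, GILZ TG against WT and GILZ KO against GILZ TG, respectively, they were 12, 81 and 623 without treatment and 10, 56 and 316 after LPS. Leaving out 1 library gave 5 to 6, 16 to 665 and 79 to 1306, and then 4 to 23, 15 to 1067 and 24 to 1403. Other settings gave 8 to 79, 26 to 315 and 34 to 1218, and then 10 to 100, 30 to 412 and 34 to 822. The interactions had 2, 1 and 16 calls, with 1 to 4, 1 to 8 and 0 to 82 on leaving out 1 library and 1 to 20, 0 to 2 and 0 to 150 otherwise. On log2(TPM + 1), 75% and 75.6% of untreated calls against WT were higher in GILZ KO and GILZ TG, beside 50% and 56.8%.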
